A study of Mus musculus with 22 samples.

Results

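Donor CD4 T cells were compared with donor CD8 T cells sorted from the same tissue, the spleen, of mice that had received a transplant of allogeneic cells. Libraries were taken by the tissue and cell type in their labels and paired where batch and treatment label were equal, which gave 12 of the 22 libraries in 6 pairs. The other 10 libraries, from gut, enter once, in a test of whether the difference depends on tissue. In all groups the donors were wild-type C57BL/6 mice, whose marrow and spleen cells had been given to wild-type BALB/c recipients after lethal irradiation, a model of graft-versus-host disease. Recipients had then received control IgG or a monoclonal antibody against interleukin 2 (anti-IL-2) every other day until day 6, and donor cells were sorted by flow cytometry on day 7. Each of the 4 spleen groups (CD4 with IgG, CD8 with IgG, CD4 with anti-IL-2, CD8 with anti-IL-2) held 3 libraries, 1 from each of the batches 181201, 181212 and 190306. No group held untransplanted cells, so every library is of T cells in an alloreactive setting. The labels do not say whether libraries came from separate or pooled animals, so the tests measure only how far these pairs of libraries differ among themselves, which may be technical.

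CD4 T cells read peptides on MHC class II and help other cells through CD40 ligand and secreted cytokines, and CD8 T cells read peptides on MHC class I and kill through perforin and granzymes. In the thymus the factor ThPOK (gene Zbtb7b) holds cells in the CD4 lineage, and Runx3 with its partner CBF beta holds them in the CD8 lineage and represses Cd4. In the graft-versus-host setting both kinds of cell are activated by host antigens, divide, and take on effector programmes.

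The spleen libraries held 15598591 to 24518362 counts, with reads on 14136 to 14690 of 24091 gene names. Levels below are CPM, a gene's reads scaled to a fixed library size with TMM factors, given as the lowest, median and highest of 6 libraries. The sorting markers separated the libraries as labelled: Cd4 ran from 1830 to 2065 CPM in CD4 libraries and from 0.330 to 2.57 CPM in CD8 libraries. Cd8a was at 0.119 to 2.5 CPM in CD4 libraries and at 933 CPM or more in CD8 libraries, and Cd8b1 was at 8.25 to 13.2 CPM in CD4 libraries. These 3 genes chose the samples and are not counted as findings. In batch 190306 the treatment labels went against the other batches: Il2ra in CD4 libraries was 243 and 262 CPM in those labelled IgG of batches 181201 and 181212 but 67.4 CPM in that labelled IgG of batch 190306, and 62.0, 62.6 and 227 CPM in the matching libraries labelled anti-IL-2. Labels were kept as given, and since both libraries of a pair carry the same label, the difference within a pair does not use it. Of 14 B cell markers, 4 passed the filter, 2 of them called higher in CD4 and 1 in CD8, against 34.9% and 33.1% of all genes. The summed B cell markers ran from 65.9 to 196 CPM of the library total in CD4 and 32.9 to 76.9 in CD8 libraries. This sum was higher in CD4 in 6 of 6 pairs. Cd22, singled out after its values were seen, was at a mean of 118 CPM in CD4 and 37.5 in CD8. Cd79a and Ms4a1 stayed under 0.5 CPM in all 12 libraries. Among macrophage genes Csf1r reached 51.4 CPM and C1qa 34.0 CPM in a CD4 library, against at most 10.1 and 8.53 CPM in CD8. The part of these cells in the results was not tested.

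Cell type was the main axis of these libraries. Of 12059 genes tested, 8202 (68.0%) differed between CD4 and CD8 cells at an adjusted p under 0.05 (edgeR quasi-likelihood test with pair as a block, Benjamini-Hochberg), 4214 (34.9%) higher in CD4 and 3988 (33.1%) higher in CD8. Of those, 7196 (87.7%) had the same sign in all 6 pairs. Differences of at least 2-fold were called for 806 genes (6.68%) higher in CD4 and 673 (5.58%) higher in CD8, and the median size over all genes tested was only 0.24 on the log2 scale. All 6 CD4 libraries lay above all 6 CD8 libraries for 1231 genes (10.2%), and the reverse held for 1322 (11%). The first principal component held 55.3% of the variance, of which cell type accounted for 92.3%. Across 9753 genes, the differences of any pair correlated with those of any other with r of 0.880 to 0.954 (15 correlations across genes, which are not independent replicates). Bulk libraries cannot tell fewer cells that express a gene from less RNA per cell.

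**Figure D1:**
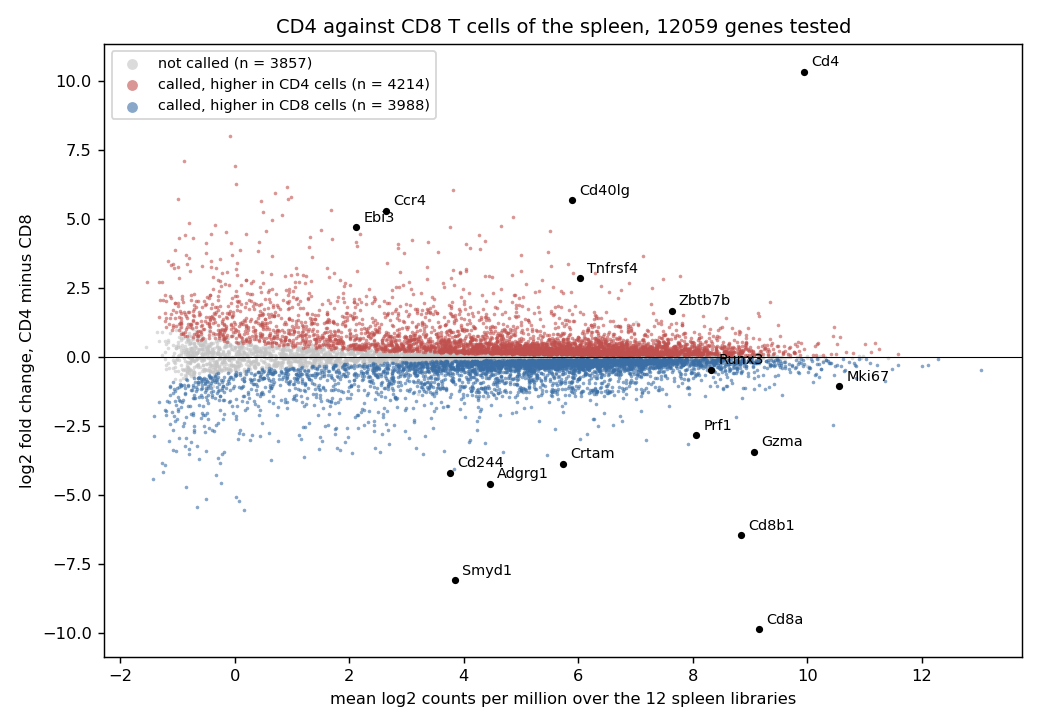
Mean log2 CPM over the 12 spleen libraries (horizontal) against the log2 fold change, CD4 minus CD8 (vertical), for 12059 genes, with 4214 genes called higher in CD4 in red, 3988 called higher in CD8 in blue and the others in grey. Apart from the sorting markers, Cd40lg at 5.70 and Smyd1 at -8.10 lie farthest from 0 among the labelled genes.

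Among genes named by size, Cd40lg had the largest CD4-higher difference. This gene, the ligand through which helper cells license B cells and dendritic cells, ran at 89.8, 122 and 142 CPM in CD4 libraries and at 1.32, 1.85 and 4.0 CPM in CD8 libraries. The groups did not overlap, and the log2 fold change was 5.70 ± 0.13 (SE, n = 6 pairs, adjusted p = 1.34e-08). Ccr4, a chemokine receptor of skin-homing and type 2 helper cells, followed at 5.30 ± 0.27, with at most 0.667 CPM in any CD8 library. Coro2b, which encodes a coronin that binds actin, reached 32.9 to 89.1 CPM in CD4 libraries and 0.572 to 3.21 in CD8 libraries. Ebi3, a subunit of the cytokines IL-27 and IL-35, differed by 4.71 ± 0.16, and Ptgir, the prostacyclin receptor, by 4.24 ± 0.15.

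The other genes among the 15 largest CD4-higher differences were Ifi204, Ica1l, Sostdc1, Galnt9, Asb2, St8sia1, Cebpa, Zfyve28, Nav2 and Ramp3, at log2 fold changes of 4.01 to 4.73. Sostdc1, a secreted antagonist of BMP and Wnt signals, ranged widely between pairs, from 35.6 to 175 CPM in CD4 libraries and from 0.40 to 12.6 CPM in CD8 libraries, yet no CD8 library reached the lowest CD4 library. Asb2, a subunit of a ubiquitin ligase, was steadier, at 31.3 to 42.0 CPM against 1.08 to 2.93 CPM. St8sia1 makes the disialylated ganglioside GD3, and Galnt9 starts O-linked glycans. Zfyve28 had the most variable difference of these 15, from 2.01 to 5.28 between pairs.

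On the CD8 side Smyd1, a SET domain protein known from heart and skeletal muscle, stood apart. It held 3305 reads in the 6 CD8 libraries together and 11 in the 6 CD4 libraries, and its levels were 24.9, 27.5 and 34.9 CPM in CD8 and 0, 0.123 and 0.157 CPM in CD4. The log2 fold change was -8.10 ± 0.15 (adjusted p = 5.35e-12), and the ratio of summed reads was 289 (95% exact interval 161 to 580, counting error only). Smyd1 lies on chromosome 6 (GRCm38, GENCODE M21, 71213940 to 71322233, minus strand) and its annotated 5′ end is next to Cd8b1, which starts at 71322788 on the plus strand. Krcc1, which lies inside the Smyd1 span on the other strand, did not pass the test, at 52.4 CPM on average in CD4 libraries and a log2 fold change of 0.04 ± 0.04. On the far side of Cd8a, Rmnd5a was likewise not called (-0.03 ± 0.03). How the submitters treated strand is not given in the sources used here, so reads from opposite strands cannot be told apart.

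Adgrg1 (GPR56), a receptor known from cytotoxic lymphocytes, ran at 30.2, 42.0 and 55.2 CPM in CD8 libraries and at 0.821, 1.83 and 2.27 CPM in CD4 libraries, a difference of -4.60 ± 0.10. Adgrg5, its neighbour in the genome, differed by -4.07 ± 0.17. Cd244 (2B4), a SLAM family receptor of NK and CD8 cells, differed by -4.20 ± 0.23, and Crtam, an adhesion receptor of activated CD8 cells, by -3.87 ± 0.11. Bend4, a DNA-binding BEN domain protein, had one of the steadiest differences, between -3.75 and -3.28 in all 6 pairs. Arap3, Dnm3, Gzma, Wdr95, Rcn3, Fam78b, Lat2, Itgax and Cd72 completed the 15, at -3.53 to -3.14. For Itgax (CD11c), an integrin chain best known from dendritic cells and also found on activated CD8 cells, the 6 CD8 libraries ran from 314 to 500 CPM and the CD4 libraries from 25.5 to 78.1 CPM.

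**Figure D2:**
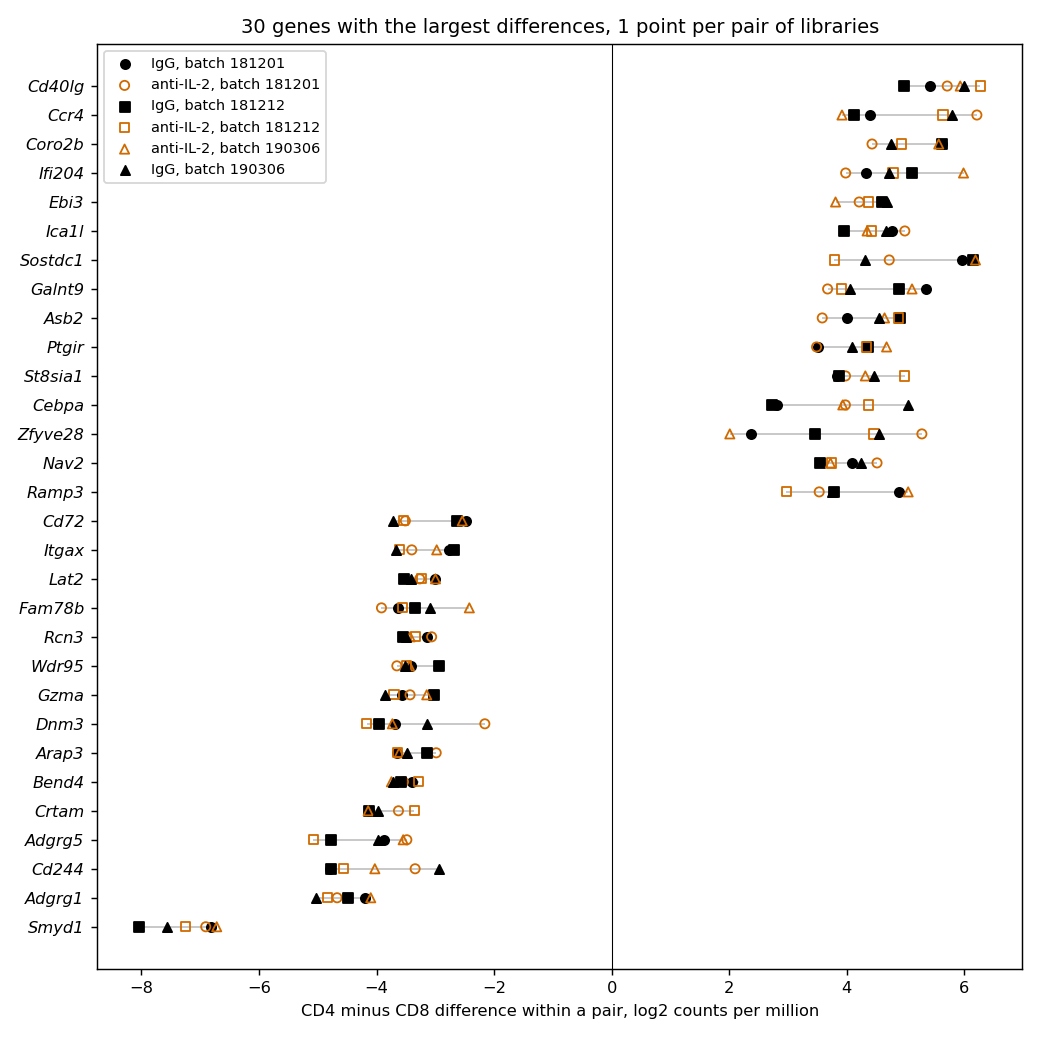
CD4 minus CD8 difference in log2 CPM within each of the 6 pairs (horizontal) for the 30 genes with the largest differences (vertical), filled black symbols for pairs labelled IgG, open orange symbols for anti-IL-2 and 1 symbol shape per batch. No point crosses 0, because only genes with the same sign in all 6 pairs were taken. Bend4 spans -3.75 to -3.28, and Zfyve28 and Dnm3 are among the widest.

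The factors that fix the lineages differed less than the genes above, which were picked as the largest differences. Over the 20 lineage factors tested the median size was 0.45 and 30% were called past 2-fold. Over all genes tested these values were 0.24 and 12.3%. Zbtb7b (ThPOK) ran at 232, 320 and 328 CPM in CD4 libraries and at 69.5, 94.3 and 122 CPM in CD8 libraries, a log2 fold change of 1.67 ± 0.10. Runx3 was higher in CD8 by only 0.46 (-0.46 ± 0.03), at 204 to 318 CPM in CD4 and 291 to 436 CPM in CD8 libraries, so the ranges overlapped although each pair had the same sign. Its partner Cbfb differed by -0.30 ± 0.02. Of 20 lineage factors tested, 9 were higher in CD4 and 9 in CD8, against 34.9% and 33.1% of all genes. Among them, Gata3, which drives CD4 and type 2 helper fates, was higher in CD4 (1.24 ± 0.05), as were Satb1 (1.04 ± 0.04) and Tox2 (1.53 ± 0.09). Tox, a factor of thymic CD4 selection and of exhausted CD8 cells, was higher in CD8 (-0.80 ± 0.05), as was Ikzf3, which encodes Aiolos (-0.97 ± 0.03). Genes near Zbtb7b on chromosome 3 went in different directions: Adam15, 27648 bp away, was higher in CD4 by 1.42 ± 0.06, Cks1b, a cell cycle gene 20696 bp away, was higher in CD8 (-1.23 ± 0.05), and Pygo2 differed by 0.25 ± 0.03. Lag3, 16140 bp from Cd4, was higher in CD8 (-1.06 ± 0.07).

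Effector transcription factors went in both directions. Eomes, a T-box factor of cytotoxic and memory CD8 cells, ran at 2.51, 12.7 and 34.5 CPM in CD4 and at 40.6, 117 and 171 CPM in CD8 libraries. No CD4 library reached the lowest CD8 library, and the difference was -2.99 ± 0.30. Tbx21 (T-bet), which drives interferon gamma in both lineages, differed by -0.67 ± 0.05, Prdm1 (Blimp-1) by -0.89 ± 0.04 and Irf8 by -1.12 ± 0.04. Maf was higher in CD4, at 281 to 442 CPM against 43.4 to 59.7 CPM (2.95 ± 0.10), as were Bcl6, the factor of follicular helper cells (2.38 ± 0.06), and Ikzf2, which encodes Helios (2.16 ± 0.05). Over the 34 factors tested, 20 were higher in CD4 and 10 in CD8, against 34.9% and 33.1% of all genes. Their median was 0.27, against 0.01 over all genes tested.

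Follicular helper genes were nearly all higher in CD4. Of 16 tested, 15 were called higher in CD4, 14 of them by at least 2-fold, against 34.9% and 6.68% of all genes. The median was 2.17. Il21, the cytokine that drives germinal centre B cells, ran at 34.8 to 152 CPM in CD4 and 2.14 to 13.9 CPM in CD8 libraries (3.80 ± 0.10). Cxcr5, the receptor that leads cells to follicles, spread from 46.8 to 234 CPM in CD4 and from 1.89 to 40.2 CPM in CD8, and its pair differences ran from 2.46 to 4.56. Izumo1r, which encodes folate receptor 4, differed by 3.71 ± 0.07, and Btla, an inhibitory receptor, by 1.5 ± 0.04. The exception was Pdcd1 (PD-1), which was higher in CD8, at 459 to 599 CPM against 302 to 394 CPM, without overlap (-0.57 ± 0.05).

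Costimulators and secreted cytokines followed the same direction. Of 21 helper ligands and costimulators, 17 were higher in CD4 and 3 in CD8, against 34.9% and 33.1% of all genes. Tnfrsf4 (OX40) ran at 104, 115 and 126 CPM in CD4 libraries against 10.6, 16.9 and 18.9 CPM (2.85 ± 0.11), and Icos at 649 to 1134 CPM against 211 to 348 CPM (1.58 ± 0.04). The 3 on the other side were Tnfrsf9, which encodes 4-1BB (-1.25 ± 0.11), Cd27 (-0.52 ± 0.04) and Tnfsf4, the OX40 ligand (-1.43 ± 0.33). Tnfsf4 was low in every library and its pair differences ran from -2.11 to 0.64, so not every pair had this sign. Of 19 cytokine genes tested, 16 were higher in CD4 and 1, Ifng, in CD8, against 34.9% and 33.1% of all genes. The median was 1.64. Ifng was at 40.1 to 138 CPM in CD4 and 67.4 to 196 CPM in CD8 libraries (-0.77 ± 0.09). Tnf was higher in CD4 (2.02 ± 0.14), as were Csf1 (1.63 ± 0.10) and Tgfb3 (3.06 ± 0.10).

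Il2 and Il4 were rare transcripts with far more reads in CD4 cells. Il2, the cytokine that the antibody binds, held 271 reads in the 6 CD4 libraries together and 15 in the CD8 libraries, or 1.52 to 4.16 CPM against 0 to 0.240 CPM. Il4 held 207 and 2 reads, a ratio of 108 (95% exact interval 29.4 to 894, counting error only), and 5 of 6 CD8 libraries had none. Of 13 type 2 helper genes, 11 were higher in CD4 and 1, Nfil3, in CD8, against 34.9% and 33.1% of all genes. Of 17 type 1 helper genes, 5 were higher in CD4 and 6 in CD8, with a median of -0.06, where 34.9% and 33.1% of all genes were called. The 5 became 3 when the pair labelled IgG of batch 181201, IgG of batch 181212 or anti-IL-2 of batch 190306 was left out, 2 without that batch and 1 without the pair block. Cxcr3, a receptor of type 1 cells, was not called (-0.05 ± 0.06, adjusted p = 0.518), at 218 to 393 CPM in CD4 and 241 to 403 CPM in CD8 libraries.

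Killing genes were higher in CD8 but far from silent in CD4 cells. Of 25 granule and killing genes tested, 17 were higher in CD8, 9 by at least 2-fold, and 4 in CD4, with a median of -0.75. The shares of all genes were 33.1%, 5.58% and 34.9%. Gzmb, the granzyme that cleaves caspases, ran at 1318, 2249 and 3409 CPM in CD8 and at 211, 423 and 725 CPM in CD4 libraries, a difference of -2.48 ± 0.10. Gzma spread further between pairs, from 361 to 1799 CPM in CD8 and 27.7 to 167 CPM in CD4, but its pair differences stayed between -3.85 and -3.02. Prf1, the pore-forming protein perforin, was at 393 to 526 CPM in CD8 and 47.4 to 85.7 CPM in CD4 libraries (-2.84 ± 0.06), and Gzmk at 117 to 199 against 13.5 to 59.7 CPM (-2.46 ± 0.36). The 4 on the CD4 side were Srgn, the granule proteoglycan (0.91 ± 0.03), Tnfsf10, which encodes TRAIL (0.57 ± 0.10), Lamp1 (0.15 ± 0.04) and Stxbp2 (0.09 ± 0.03). Granzymes, Klr receptors and classical MHC genes have close copies, and how the counting treated reads shared between copies is not given in the sources used here.

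The promoter windows of Prf1, Gzmb and Smyd1, chosen after their values were seen, are shown with Bcl6 from the CD4 side because Runx3 marks the CD8 lineage and these genes differed strongly. Each is 300 bases, from 250 before to 50 after a start annotated by RefSeq (build GRCm38.p6), on the gene's own strand. Capitals mark TGTGGT, a core recognised by RUNX factors, or its reverse complement ACCACA. Both strands were searched.
Prf1, chr10:61297586-61297885, plus strand: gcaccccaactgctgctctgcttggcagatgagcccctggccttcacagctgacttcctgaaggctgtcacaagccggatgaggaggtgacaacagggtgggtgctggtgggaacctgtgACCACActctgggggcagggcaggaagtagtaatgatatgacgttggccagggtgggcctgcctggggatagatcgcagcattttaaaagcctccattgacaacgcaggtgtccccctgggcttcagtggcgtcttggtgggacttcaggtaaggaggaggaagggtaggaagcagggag
Gzmb, chr14:56262285-56262584, minus strand: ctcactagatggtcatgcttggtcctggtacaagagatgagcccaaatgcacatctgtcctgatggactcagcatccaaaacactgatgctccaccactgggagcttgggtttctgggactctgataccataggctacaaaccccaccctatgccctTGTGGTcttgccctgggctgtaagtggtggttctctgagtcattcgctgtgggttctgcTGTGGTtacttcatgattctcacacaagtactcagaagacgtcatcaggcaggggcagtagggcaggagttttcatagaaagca
Smyd1, chr6:71262232-71262531, minus strand: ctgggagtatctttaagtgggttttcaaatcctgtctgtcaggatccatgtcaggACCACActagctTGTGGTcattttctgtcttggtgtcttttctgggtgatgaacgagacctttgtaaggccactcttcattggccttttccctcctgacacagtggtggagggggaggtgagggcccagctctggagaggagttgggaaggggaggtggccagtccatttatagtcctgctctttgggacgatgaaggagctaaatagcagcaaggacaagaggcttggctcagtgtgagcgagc
Bcl6, chr16:23988803-23989102, minus strand: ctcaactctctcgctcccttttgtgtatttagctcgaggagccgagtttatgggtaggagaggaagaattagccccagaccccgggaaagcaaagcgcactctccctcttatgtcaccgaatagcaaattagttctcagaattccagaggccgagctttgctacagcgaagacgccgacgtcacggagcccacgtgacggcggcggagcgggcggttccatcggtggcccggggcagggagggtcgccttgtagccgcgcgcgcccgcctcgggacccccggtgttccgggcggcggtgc

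The Gzmb and Smyd1 windows each held 2 matches, the Prf1 window 1, and the Bcl6 window 0. On the CD4 side matches were also found: the Trat1 window held 1, and of the windows of Zbtb7b one held 1 and the other 0. Of the 15 genes with the largest CD8-higher differences, 9 had a window and 5 of them (55.6%) held a match. Of the 15 on the CD4 side 12 had a window and 2 (16.7%) did. Over the 9364 tested genes with a window the share was 15.6%, and over all 27025 genes with a window 18.9%. The T-box core AGGTGT or its reverse complement gave shares of 22.2%, 8.33%, 13.1% and 15.7% in the same order. The core AGATAA, bound by Gata3 and its relatives, or its reverse complement gave 11.1%, 0%, 7.83% and 12.7%. With so few genes these shares are descriptions, a match is not shown to be a bound site, and no match says only that these letters are not in this window. The Smyd1 window lies inside the GENCODE span of that gene, whose 5′ end is upstream of it, and which start was used in these cells was not tested.

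NK-type receptors showed the same direction as the granule genes. Of 21 receptors and adaptors tested, 15 were higher in CD8, 12 by at least 2-fold, and 4 in CD4, with a median of -1.10. The shares of all genes were 33.1%, 5.58% and 34.9%. Klrk1 (NKG2D), an activating receptor for stress ligands, ran at 179 to 363 CPM in CD8 and 10.8 to 68.5 CPM in CD4 libraries (-3.00 ± 0.27). Klrb1b (-3.13 ± 0.13), Cd160 (-2.24 ± 0.06) and Klre1 (-2.06 ± 0.15) were higher in CD8, and Klrd1 (CD94) by a smaller step (-0.82 ± 0.15). Klri2 (0.79 ± 0.20), Klrb1f (1.10 ± 0.11), Tyrobp and Hcst were the CD4-higher members. Tyrobp and Hcst were not called with DESeq2, without the pair block or without the pair labelled anti-IL-2 of batch 181201, which left 2. The summed NK and innate lymphoid markers ran from 342 to 577 CPM of the library total in CD4 and 326 to 390 in CD8 libraries. This sum includes Gata3 and Eomes, described above as T cell factors. Their means were 238 and 16.5 CPM in CD4 and 99.1 and 114 CPM in CD8 libraries. Of the other markers, Ncr1 was at or below 0.490 CPM in every library and Klrb1c ran from 9.86 to 25.6 CPM in CD4 and 5.51 to 97.3 CPM in CD8. The part of NK and innate lymphoid cells in the NK receptor result was not tested. Inhibitory receptors had no common direction: of 18, 9 were higher in CD4 and 8 in CD8, against 34.9% and 33.1% of all genes. Ctla4 (0.86 ± 0.07), Btla and Cd5 (0.96 ± 0.03) were among the former, and Lag3, Pdcd1, Cd160 and Cd244 among the latter.

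**Figure D3:**
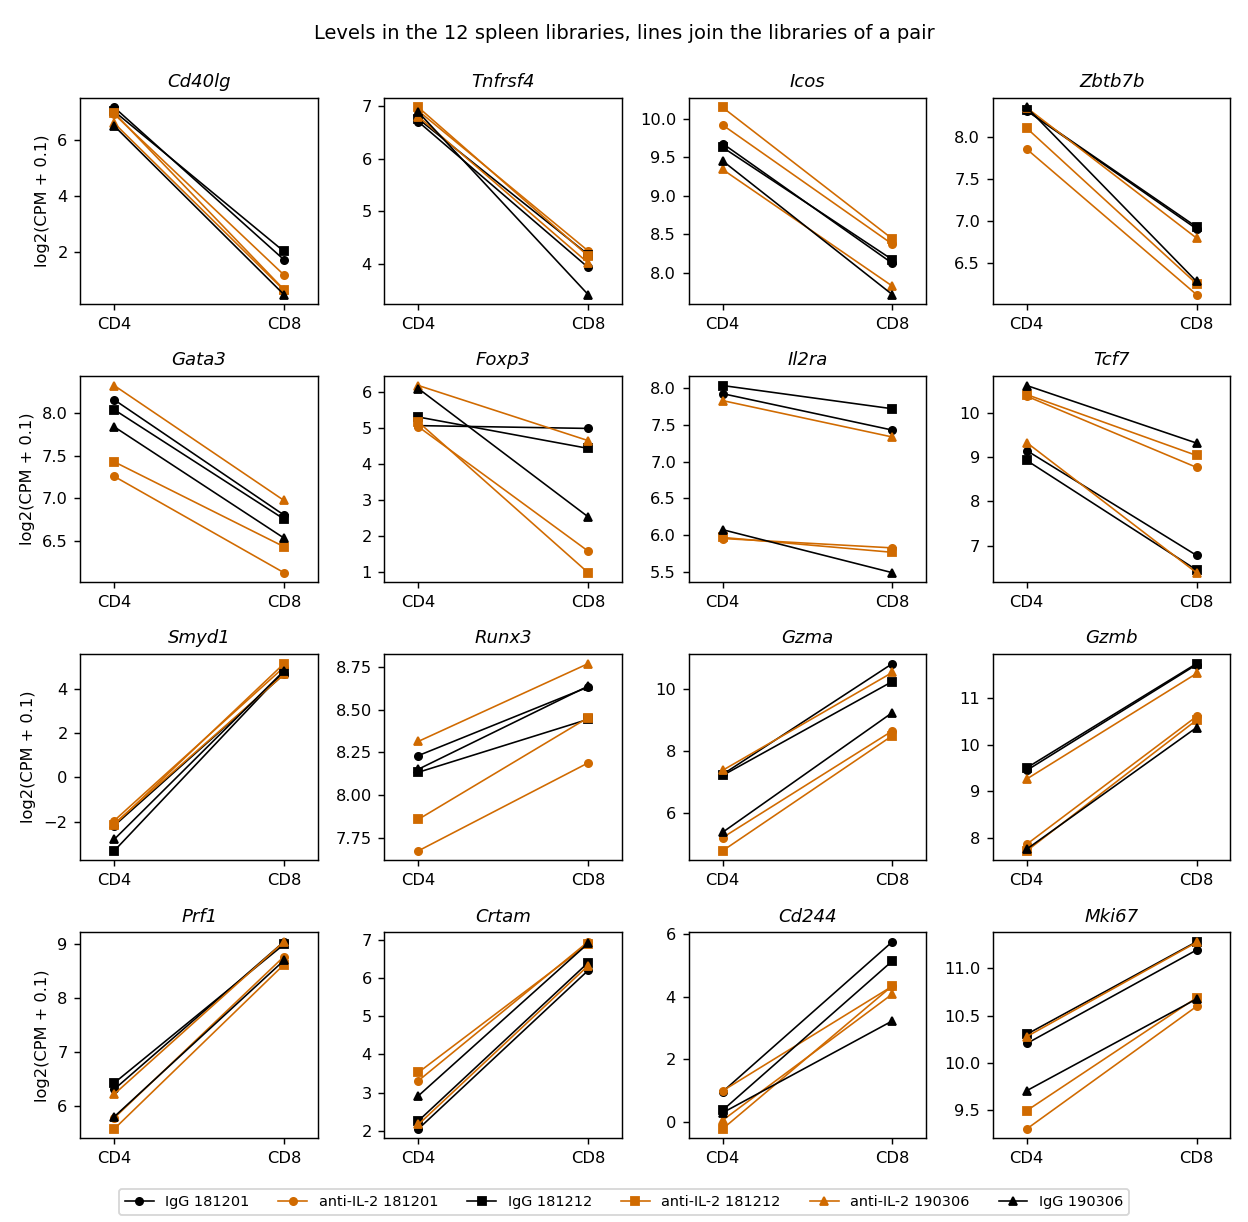
Levels of 16 genes as log2(CPM + 0.1) (vertical) in the CD4 and the CD8 library of each pair, joined by a line, black for pairs labelled IgG and orange for anti-IL-2, 1 symbol per batch. The lines run almost parallel for Gzma, Gzmb, Mki67 and Icos although levels differ between pairs, and fan out for Foxp3, whose CD8 level runs from 1.86 to 31.8 CPM.

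Foxp3, the factor of regulatory T cells, had the widest spread between pairs of the named genes, with an SD of 1.68. CD4 libraries held 32.9 to 73.0 CPM, and CD8 libraries held 31.8, 21.6 and 5.68 CPM (labelled IgG, batches 181201, 181212 and 190306) and 2.88, 1.86 and 25.1 CPM (labelled anti-IL-2, same order). No CD8 library reached the lowest CD4 library, but the pair differences ran from 0.08 to 4.20. The log2 fold change of 1.89 ± 0.62 passed at an adjusted p of 0.0395, and leaving out any pair but that labelled IgG of batch 181201 took it past 0.05 (0.0572 to 0.0927). Without batch 190306 the adjusted p was 0.197. The 3 CD8 libraries under 6 CPM of Foxp3 were also those with the lowest Il2ra, at 44.9, 54.4 and 56.7 CPM against 161 to 211 CPM in the others. Over the regulatory list, 16 of 20 genes were higher in CD4 and 2 in CD8, against 34.9% and 33.1% of all genes. The median was 1.03. Those higher in CD8 were Entpd1 (-0.27 ± 0.07) and Capg (-0.21 ± 0.07). Only 1 of these 2 was called when the pair labelled IgG of batch 181201 or either anti-IL-2 pair of batches 181201 and 181212 was left out, and 0 without the pair block.

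Il2ra (CD25), the high-affinity receptor chain and a STAT5 target, ran at 62.0, 147 and 262 CPM in CD4 and at 44.9, 109 and 211 CPM in CD8 libraries, so the groups overlapped widely while every pair was higher in CD4 (0.38 ± 0.06). Il2rb, the shared signalling chain, was higher in CD8 (-0.33 ± 0.05). Of 44 IL-2 and STAT5 targets, 32 were higher in CD4 and 10 in CD8, against 34.9% and 33.1% of all genes, with a median of 0.58. Their median size was 0.81 and 38.6% were called past 2-fold, against 0.24 and 12.3% over all genes tested. Cish and Socs2, feedback inhibitors of cytokine signals, each differed by 1.61 (SE 0.13 and 0.14). Ccnd2, a D-type cyclin, differed by 1.11 ± 0.04 and Ncoa3 by 0.83 ± 0.03. The CD8-higher targets included Prf1, Gzmb, Tnfrsf9 and Prdm1, so the members moved in both directions.

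Receptors for other signals were mostly higher in CD4. Among 41 cytokine receptor genes 24 were higher in CD4 and 7 in CD8, against 34.9% and 33.1% of all genes. Il6ra, the IL-6 receptor (3.31 ± 0.10), Il1r1, the IL-1 receptor (3.08 ± 0.18), and Tgfbr3 (2.55 ± 0.13) were among the former, and Il10rb (-0.75 ± 0.05) and Tnfrsf1b, TNF receptor type II (-0.41 ± 0.06), among the latter. Chemokine receptors went both ways, 14 of 30 higher in CD4 and 9 in CD8, against 34.9% and 33.1% of all genes. Ccr7, the lymph node homing receptor (2.12 ± 0.14), and Ccr8 (1.95 ± 0.12) were higher in CD4, and Cx3cr1, a marker of cytotoxic effector cells (123 to 160 against 19.8 to 26.4 CPM, -2.51 ± 0.05), was higher in CD8. Ccl5, a chemokine stored by effector cells, was higher in CD8 at 600 to 876 CPM against 80.0 to 215 CPM (-2.19 ± 0.18), and Ccl1 was higher in CD4 (3.26 ± 0.27). Of 27 integrin and adhesion genes, 10 were higher in CD4 and 12 in CD8, against 34.9% and 33.1% of all genes. Of these 27, 29.6% were called past 2-fold, against 12.3% of all genes. Itgb1 was higher in CD4 (1.08 ± 0.05), and its partner Itga4 was higher in CD8 (-0.87 ± 0.04), as was Jaml (-2.62 ± 0.06).

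Naive and memory genes were mostly higher in CD4, 19 of 23, with 2 in CD8, against 34.9% and 33.1% of all genes. The median was 0.88. Tcf7, which encodes TCF-1, a factor of naive, memory and follicular cells, ran at 485, 984 and 1568 CPM in CD4 and at 83.5, 272 and 637 CPM in CD8 libraries. The ranges overlapped, every pair was higher in CD4 by 1.3 to 2.94, and the log2 fold change was 1.98 ± 0.28. Igfbp4 (2.59 ± 0.12) and Slamf6 (1.16 ± 0.06) were higher in CD4. Klf2 (-0.11 ± 0.03) and Actn1 (-0.17 ± 0.05) made up the CD8 side, of which 1 was called without the pair labelled IgG of batch 181201 or anti-IL-2 of batch 181212, and 0 without the pair block.

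**Figure D4:**
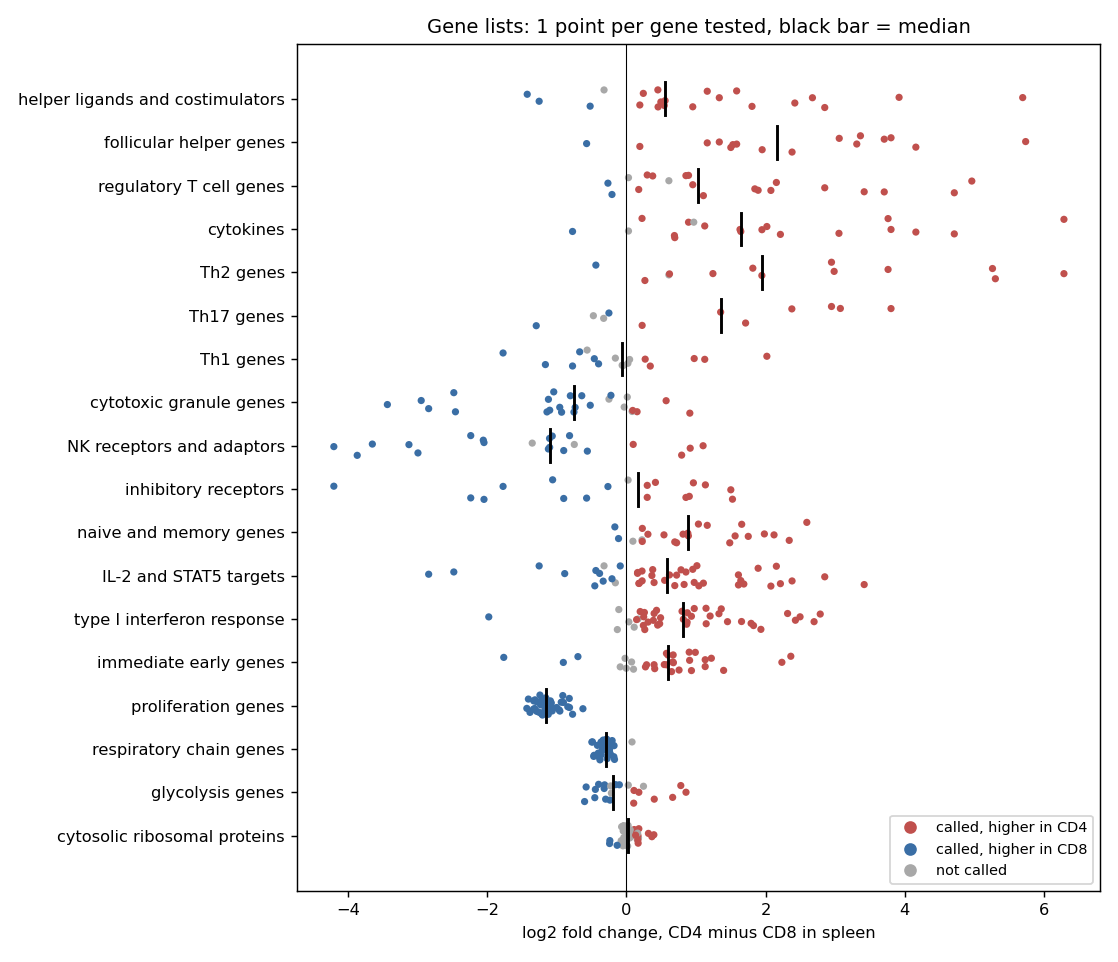
Log2 fold change, CD4 minus CD8, of every tested member (points) of 18 gene lists, red where called higher in CD4, blue where called higher in CD8, grey where not called, with the median as a black bar. Follicular helper, cytokine and type 2 helper genes lie to the right, granule genes and NK receptors to the left, and the 42 proliferation genes form a narrow band with a median of -1.15.

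Proliferation genes showed the most uniform pattern of the lists. All 42 genes tested were higher in CD8, 32 of them by at least 2-fold, where the shares of all genes were 33.1% and 5.58%. In 38 of the 42 no CD4 library reached the lowest CD8 library, which held for 11% of all genes. The median was -1.15 and stayed between -1.3 and -1.0 in each of the 6 pairs. Mki67 ran at 1548, 1994 and 2485 CPM in CD8 and at 633, 1009 and 1264 CPM in CD4 libraries (-1.07 ± 0.05). Top2a, which untangles replicated DNA, differed by -1.0 ± 0.03, Mcm5, part of the replicative helicase, by -1.12 ± 0.03, Rrm1, a ribonucleotide reductase subunit, by -1.08 ± 0.03, and E2f8 by -1.31 ± 0.04. All 42 remained called in every alternative fit. Counts are relative to the library, so these values are shares of each library's RNA.

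Metabolic genes differed less. Of 32 respiratory chain genes 31 were higher in CD8 and none in CD4, against 33.1% and 34.9% of all genes. None differed by 2-fold, and the median was -0.29. Examples are Atp5b of the ATP synthase (-0.41 ± 0.02) and Sdhb of complex II (-0.42 ± 0.03). Glycolysis genes split, 7 of 22 higher in CD4 and 11 in CD8, against 34.9% and 33.1% of all genes. Slc2a1, the glucose carrier (-0.45 ± 0.04), and Pfkp (-0.58 ± 0.03) were higher in CD8, and Pfkm (0.86 ± 0.06) and Pdk1 (0.66 ± 0.05) in CD4. Of 23 cholesterol synthesis genes 15 were higher in CD8 and 3 in CD4, against 33.1% and 34.9% of all genes. Only 14 of 40 cytosolic ribosomal protein genes were called, 10 in CD4 and 4 in CD8, a smaller share than the 68.0% over all genes, and their median was 0.02.

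Interferon response genes were higher in CD4. Of 41 tested, 35 were called in CD4, 15 of them by at least 2-fold, and 1, Ly6c2, in CD8 (-1.98 ± 0.10), with a median of 0.82. The shares of all genes were 34.9% in CD4, 6.68% by at least 2-fold, and 33.1% in CD8. Oasl2 ran at 7.76 to 34.7 CPM in CD4 and 1.49 to 5.39 CPM in CD8 libraries (2.70 ± 0.09), Slfn5 at 185 to 362 CPM against 29.6 to 61.1 CPM (2.5 ± 0.07) and Ifi27l2a at 107 to 453 CPM against 25.1 to 138 CPM (1.93 ± 0.05). Macrophage genes moved in the same direction: 13 of 18 were called higher in CD4 and 1, Cd68, in CD8. Their summed level ran from 61.8 to 538 CPM of the library total in CD4 and from 77.7 to 215 in CD8 libraries, and was higher in CD4 in 3 of 6 pairs. The interferon median ran from 0.61 to 0.93 over the 6 pairs. Without the pair labelled anti-IL-2 of batch 181201, 8 macrophage genes were called higher in CD4. Without batch 190306, 6 macrophage genes were called higher in CD4 and 36 interferon genes were, and without the pair block 0 and 22. The part of macrophage RNA in the interferon result was not tested. Immediate early genes were also mostly higher in CD4, 23 of 31 with 3 in CD8, against 34.9% and 33.1% of all genes. The counts were 14 and 3 without the pair block. Egr2, a factor induced by antigen receptor signals, differed by 2.23 ± 0.07, and Nr4a2 (-1.76 ± 0.22) and Fosl2 (-0.91 ± 0.10) were higher in CD8.

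Antigen receptor signalling genes went both ways: with the coreceptors, 21 of 41 were higher in CD4 and 13 in CD8, against 34.9% and 33.1% of all genes. Trat1, an adaptor that stabilises the receptor at the surface, had 605 reads in CD4 and 25 in CD8 libraries (4.60 ± 0.19). Cd247, the zeta chain, was higher in CD4 (0.54 ± 0.03), as was Cd6 (1.09 ± 0.04). Cblb, a ubiquitin ligase that restrains activation (-0.60 ± 0.02), the kinase Syk (-1.83 ± 0.18), Ubash3b (-1.21 ± 0.07) and the kinase Tec (-1.28 ± 0.08) were higher in CD8. Of 29 death and survival genes, 14 were higher in CD4 and 7 in CD8, against 34.9% and 33.1% of all genes. Casp4 (1.71 ± 0.05) and Bbc3, which encodes PUMA (1.37 ± 0.06), were among the former. MHC class I and loading genes split 11 and 9 of 25, against the same 34.9% and 33.1% of all genes, with none past 2-fold. H2-K1 was higher in CD4 (0.51 ± 0.03) and Tapbpl in CD8 (-0.55 ± 0.03).

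The CD4 minus CD8 difference was then tested against treatment, batch and tissue. By treatment label no gene of 12059 was called (0%) by edgeR, DESeq2 or limma voom, and 325, 83 and 326 had an unadjusted p under 0.05 in them. The smallest p was that of Ubash3b, whose difference was more negative by 0.36 (-0.36 ± 0.06) in pairs labelled anti-IL-2, at an adjusted p of 0.9996. Without batch 190306, whose labels went against the others, 904 genes were called, 327 shifted toward CD4 and 577 toward CD8 in pairs labelled anti-IL-2. This batch was left out with its opposite treatment differences already known, so the 904 are no test of a treatment effect. Leaving out only the pair labelled anti-IL-2 of that batch gave 73, and leaving out only that labelled IgG gave 1. The median of the NK receptor list by pair was -1.78, -1.46 and -1.07 in pairs labelled anti-IL-2 (batches 181201, 181212 and 190306) and -1.09, -1.03 and -1.63 in those labelled IgG. The granule list gave -1.0, -1.10 and -0.61, and -0.62, -0.55 and -0.78. In both lists, then, the 3 most negative pairs were those labelled anti-IL-2 of batches 181201 and 181212 and IgG of batch 190306, the pairs in which Il2ra was lowest. Whether this difference follows the treatment was not tested.

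By batch, again no gene was called (0%) in edgeR, with 242 at an unadjusted p under 0.05, 4 called by DESeq2 and 2 by limma voom. Fos had the smallest p (adjusted p = 0.0865), with pair differences from 0.40 to 1.45. Ngp and Ltf, neutrophil genes, were also among the smallest, and the summed neutrophil markers reached 137 and 81.3 CPM of the library total in the CD4 and CD8 libraries labelled anti-IL-2 of batch 190306.

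By tissue, 1788 of 12841 genes (13.9%) had a different CD4 minus CD8 difference in spleen than in gut, in a fit of all 22 libraries with 11 pairs as blocks. Of these, 819 were shifted toward CD4 and 969 toward CD8 in spleen, 1359 differed more between the cell types in spleen and 429 more in gut, and 559 had opposite signs. Upper quartile scaling turned the split to 1025 and 734. Without the pair block 74 genes were called, and without batch 190306, 827. Gut held 2 pairs labelled IgG and 3 labelled anti-IL-2, with none labelled IgG in batch 181201, whereas spleen held 3 of each. The fit did not match spleen and gut pairs by batch and treatment label. The part of treatment and batch in the tissue term was not tested. Bcl6 differed by 2.37 in spleen and 1.07 in gut (difference 1.3 ± 0.10), and Gpm6b, a membrane glycoprotein, by 3.09 and 0.76. Isg20, an interferon-induced exonuclease, was higher in CD4 in spleen (1.33 in the same fit) but not in gut (-0.01). In the other direction, Itga2, which encodes CD49b, was 1.35 in gut and 0.33 in spleen, Tmem154 was 2.0 and 1.17, and Igf2r was -0.38 and -1.15.

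The lists also differed by tissue, and 13.9% of all genes were called for the tissue term. Of the 42 proliferation genes, 35 were called for the tissue term, all toward CD8 in spleen, with medians of -1.16 in spleen and -0.74 in gut. Of 41 interferon genes 21 were called, 20 toward CD4 in spleen and 1 toward CD8, with medians of 0.81 and 0.22, and of 16 follicular helper genes 9, all toward CD4 in spleen, with medians of 2.16 and 1.04. Macrophage markers, too, had medians of 1.44 in spleen and -0.48 in gut, with 4 of 19 called, and their part in these results was not tested. No respiratory chain gene of 32 and no type 2 helper gene of 13 was called. Cd40lg (5.69 in spleen, 5.86 in gut), Ccr4 (5.30 and 4.96), Zbtb7b (1.67 and 1.49) and Smyd1 (-8.10 and -7.35) had no called tissue term, with differences of -0.16 ± 0.24, 0.34 ± 0.63, 0.17 ± 0.13 and -0.76 ± 0.67.

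**Figure D5:**
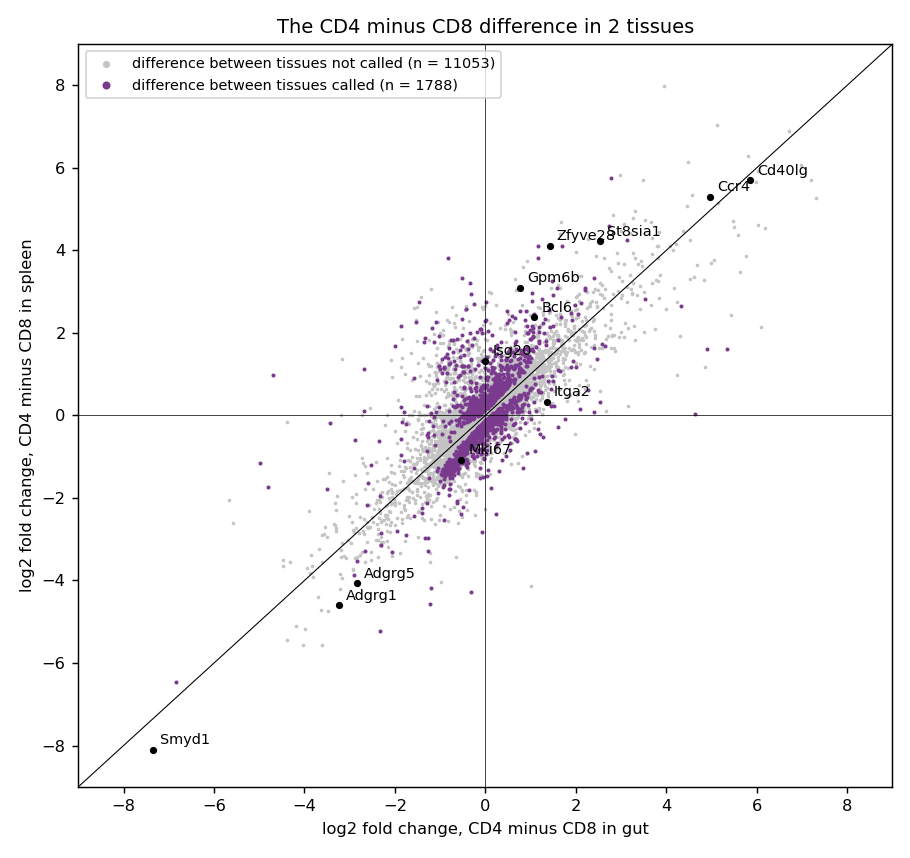
Log2 fold change, CD4 minus CD8, in gut (horizontal) and in spleen (vertical), from the fit of all 22 libraries, with the 1788 genes called for the tissue term in purple, the others in grey and the line of equality in black. Cd4 and Cd8a lie outside the axes, which end at 9, and Cd40lg, Ccr4 and Smyd1 lie near the line while Bcl6, Gpm6b and Zfyve28 lie above it.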

How the data were processed

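RNA-seq libraries of donor T cells sorted from spleen or gut were prepared with a stranded mRNA kit, per the labels' protocols. The authors deposited raw read counts per gene name. Reads were processed with TopHat2 and HTSeq 0.9.1 on mm10, per the submitters' processing notes. The annotation, strand setting and read filters are not given in the sources used here. The description field of the CD8 libraries with IgG names the other tissue, so tissue was taken from the source name.

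Counts were scaled by TMM and genes filtered with filterByExpr in edgeR 4.0.16 (R 4.3.3). CD4 was compared with CD8 by the quasi-likelihood test with pair as a block, at a Benjamini-Hochberg adjusted p under 0.05. The interactions with treatment, batch and tissue were fitted the same way. Errors are SE, taken from the fold change and its F statistic. Pair differences are of log2 CPM with a prior count of 2. Sums of marker genes are CPM of the unscaled library total. The same-numbered pairing comes from equal batch and treatment labels. Deviations from the mean of each cell type correlated at 0.735 to 0.818 within a pair, and 6 of 6 pairs matched best. Libraries of a pair share batch and treatment label, so this cannot tell whether they came from the same animals. Alternatives were other scalings, filters, DESeq2 1.42.0, limma 3.58.1 voom, no block, and leaving out pairs or a batch. The code was tested on simulated data. Of 24091 names, 23509 (97.6%) matched GENCODE M21 for coordinates.

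Named genes are the 15 largest called differences per direction among genes whose average log2 CPM was 2 or more and whose sign was equal in 6 pairs, leaving out sorting markers, predicted names and receptor segments. To these come the genes with the smallest p in each interaction, up to 4 called members per list and direction, genes that define a list, and neighbours of Cd4, Cd8a and Zbtb7b. The comparison, members and lists were chosen with earlier results of these data known. Cd68 was named after its values were seen. Some genes that meet this rule are not reported here.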

Additional observations from a re-analysis of the deposited data

Results flagged for a closer look

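Of 79 groups of 6 values checked, 8 held a value far from the other 5, where chance flags about 1 in 20. The Wdr95 difference was -2.94 in the pair labelled IgG of batch 181212 and -3.65 to -3.41 in the others. The Tnfrsf4 difference was 3.47 in the pair labelled IgG of batch 190306 and 2.58 to 2.82 in the others. Summed dendritic cell markers were lowest, at 367 CPM of the library total, in the CD8 library labelled anti-IL-2 of batch 181212, against 473 to 522. Most of this sum is Itgax, described above, at a mean of 434 CPM in CD8 libraries. Summed neutrophil markers were 137 CPM in the CD4 library labelled anti-IL-2 of batch 190306, against 1.73 to 14.9. Summed NK and innate lymphoid markers, which include Gata3 and Eomes, were 326 CPM in the CD8 library of the same label and batch, against 380 to 390. In the libraries labelled anti-IL-2 of batch 181201, erythroid markers summed to 50.9 CPM in CD4 (others 1.31 to 6.00) and 26.9 CPM in CD8 (others 1.80 to 8.52). The 10 platelet and megakaryocyte markers summed to 2.88 CPM in the CD8 library of that label and batch (others 1.33 to 1.67).

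The CD4 minus CD8 difference differed between spleen and gut for 26 of 70 genes checked, by the tissue term of the edgeR fit, where 13.9% of all genes were called. The 70 include genes named for their small p in this same term, so their count is no evidence of its own. Among the genes with the largest spleen differences, the term (spleen minus gut, log2) was 1.69 for St8sia1, 2.43 for Cebpa and 2.70 for Zfyve28 on the CD4 side. On the CD8 side it was -1.37 for Adgrg1, -1.22 for Adgrg5, -0.97 for Crtam, -0.70 for Arap3 and -0.64 for Lat2. The genes with the smallest p were Gpm6b at 2.33, Isg20 at 1.34, Bcl6 at 1.3, Aacs at 0.83 and Ikbke at 0.51 toward CD4 in spleen. Toward CD8 in spleen they were Itga2 at -1.02, Phf13 at -0.95, Tmem154 at -0.82, Igf2r at -0.77 and Hnrnpll at -0.60. Of the genes that define a list, Ccr7 had 0.70 and Icos 0.58, and Mki67 -0.53, Prf1 -0.53, Ifng -0.44, Runx3 -0.26, Tbx21 -0.25 and Il2rb -0.25.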

How the results depend on the processing

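The count of 8202 genes called ranged from 6000 to 8329 over the alternatives, with 6299 without the replicate block. Genes past 2-fold numbered 1479, and 764 at a mean log2 CPM of at least 2, where 9752 genes were tested, and 1340 without the replicate block. The treatment term gave 0 genes, and 0 to 73 when 1 pair was left out. It gave 904 without batch 190306, left out with its opposite treatment differences already known. The batch term gave 0 genes, 1 with no filter on low counts, 4 with DESeq2, 2 with limma voom, and 0 to 2 when 1 pair was left out (2 without the pair labelled anti-IL-2 of batch 181212). The tissue term gave 1788 genes, 74 without the replicate block, 827 without batch 190306, and 1273 to 1660 when 1 spleen pair was left out. Of its calls 45.8% were shifted toward CD4 in spleen, and 58.3% with upper quartile scaling. The causes were not tested.

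Of 257 named genes called, none reversed. DESeq2 lost 12 calls, the fit without the block 33 (Il2ra, Tox and Ifng among them), that without batch 190306 15, and leaving out 1 pair 3 to 12. The 3 pairs labelled anti-IL-2 alone lost 25, with Gzmk and Tcf7 among them. Cxcr3, not called, went from -0.05 to 0.032 in those pairs. Without the replicate block, calls higher in CD8 fell from 10 to 5 among IL-2 and STAT5 targets, from 9 to 5 among MHC class I genes and from 11 to 7 among glycolysis genes, and calls higher in CD4 from 4 to 2 among granule genes. Depth limits genes with few reads, such as Il4, whose ratio is given with its counting interval.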

Other observations

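Nutrient carriers and glycan enzymes were not described above. Of 19 solute carrier genes tested, 13 were higher in CD4 and 3 in CD8, against 34.9% and 33.1% of all genes. Their median was 0.11, and the counts were 8 and 0 without the pair block. Of 33 sialic acid and glycan enzymes, 9 were higher in CD4, 5 of them by at least 2-fold, and 11 in CD8. The shares of all genes were 34.9%, 6.68% and 33.1%, and the list median was -0.06. Type 17 helper genes were called higher in CD4 for 7 of 11 tested and higher in CD8 for 2, with a median of 1.35, against 34.9% and 33.1% of all genes. The CD8 count was 1 with DESeq2 and 0 without the pair labelled anti-IL-2 of batch 181201 or IgG of batch 190306.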
